A study of Mus musculus with 4 samples.

Results

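Hlf or Procr positive stem-like cells were 366 of 8969 bone marrow cells profiled by single-cell RNA sequencing. They were chosen by their unique molecular identifiers (UMIs, counts of captured transcripts): at least 1 UMI of Hlf or Procr, a UMI in at least 2 of the 5 companion genes Meis1, Adgrg1, Adgrl4, Angpt1 and Myct1, and less than 0.5% of UMIs from the basophil genes Mcpt8 and Prss34. Tet2 KO cells came from a Mx1-Cre Tet2 fl/fl mouse and WT cells from a Tet2 fl/fl littermate without Cre, so the WT also carried the floxed alleles. Mx1-Cre is switched on by interferon in many tissues, and mice of both genotypes received 4 doses of pI:pC at 12.5 µg/g, a double-stranded RNA that induces interferon. Per the study's methods the mice were 8 to 12 weeks old. From each mouse 2 populations were sorted: granulocyte-monocyte progenitors (GMP sort, gated as Lin- cKit+ Sca1- CD34+ CD16/32+), and Lin- progenitors together with CD11b+ myeloid cells (Lin-/CD11b+ sort). The cell table gives 1 mouse to each genotype and 1 library to each mouse and sort, so genotype and mouse cannot be told apart, no test between groups was possible, and all intervals here (95%, exact) cover counting error only.

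Haematopoietic stem cells renew themselves and give rise to all blood lineages through progenitors that gradually lose stem cell genes and gain those of a lineage. Hlf and Meis1 encode transcription factors needed for stem cell maintenance, Procr and Adgrg1 surface receptors used to enrich stem cells, and Angpt1 a ligand of the receptor Tie2. Early progenitors keep part of this programme while already transcribing genes of the myeloid, lymphoid or megakaryocytic and erythroid lineages, which is called priming. Interferon gamma acts on genes with GAS sites, type I interferon on genes with ISRE sites, and MHC class II genes are switched on by Ciita through a promoter with a Y box.

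The genes with the largest Tet2 KO to WT differences in the Lin-/CD11b+ sort included MHC class II genes and interferon-induced GTPases, and the promoters of 4 of them were picked because they hold letters of the motifs through which those pathways are known to act. Each sequence is the 250 bases before the transcription start, 5′ to 3′ on the gene's strand, from RefSeq on GRCm38.p6, the build called mm10 in the submitters' processing notes. Capitals mark a Y box (CTGATTGG) in H2-Aa and H2-Eb1, a GAS (TTCNNNGAA) followed by a partial ISRE (GAAANNGAA) in Igtp, and a partial ISRE on the opposite strand in Gbp2. H2-Aa lies at chr17:34287824-34288073 on the minus strand, H2-Eb1 at chr17:34305617-34305866 on the plus strand, Igtp at chr11:58199306-58199555 on the plus strand and Gbp2 at chr3:142620413-142620662 on the plus strand.
H2-Aa: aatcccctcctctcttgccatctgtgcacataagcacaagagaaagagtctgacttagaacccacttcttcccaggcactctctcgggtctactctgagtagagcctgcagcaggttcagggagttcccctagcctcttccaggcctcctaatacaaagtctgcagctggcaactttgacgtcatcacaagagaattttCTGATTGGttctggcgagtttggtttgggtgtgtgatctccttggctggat
H2-Eb1: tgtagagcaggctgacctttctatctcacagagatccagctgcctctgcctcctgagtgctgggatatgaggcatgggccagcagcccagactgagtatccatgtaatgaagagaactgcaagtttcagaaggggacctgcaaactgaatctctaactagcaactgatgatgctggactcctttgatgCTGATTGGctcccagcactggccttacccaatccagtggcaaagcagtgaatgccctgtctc
Igtp: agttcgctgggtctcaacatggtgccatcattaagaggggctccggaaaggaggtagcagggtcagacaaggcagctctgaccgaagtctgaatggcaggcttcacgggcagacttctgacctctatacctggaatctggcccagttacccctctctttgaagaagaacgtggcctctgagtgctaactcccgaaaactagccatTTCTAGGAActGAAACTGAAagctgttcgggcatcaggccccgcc
Gbp2: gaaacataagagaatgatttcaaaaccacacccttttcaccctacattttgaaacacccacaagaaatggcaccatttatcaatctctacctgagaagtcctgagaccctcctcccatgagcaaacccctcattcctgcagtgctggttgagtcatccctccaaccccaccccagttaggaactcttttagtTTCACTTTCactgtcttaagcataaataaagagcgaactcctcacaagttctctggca
The Y box began 51 bases before the start in H2-Aa and 62 bases before it in H2-Eb1. In Igtp the GAS began 45 and the partial ISRE 34 bases before the start, and in Gbp2 the partial ISRE began 58 bases before it. On either strand, a Y box was present in 3.83%, a GAS in 7.02% and a partial ISRE in 7.13% of the 32851 RefSeq promoters of this length, so these matches describe the letters and are not shown to be sites in these cells. Of the lists used below, 7 of 10 MHC class II genes had an entry, 3 of them with a Y box, and 10 of 15 GTPases, 9 of them with a partial ISRE and 6 with a GAS, and H2-Ab1, Cd74 and Iigp1 are named without a sequence.

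Every deposited cell had at least 5003 UMIs, and the median was 18713 in the WT GMP, 15488 in the Tet2 KO GMP, 11091.5 in the WT Lin-/CD11b+ and 10417 in the Tet2 KO Lin-/CD11b+ library. Library pairs shared 4 to 8 barcodes, and no shared barcode was a member in both. Xist was detected in nearly every cell and the Y-linked Kdm5d held at most 2 UMIs in each library, so both mice read as female. Doublets were kept, since no doublet caller was run. Of the members, 5 had more than 1% of their UMIs from markers of another lineage, 2 of them in the WT and 3 in the Tet2 KO Lin-/CD11b+ library, and results that rest on such cells are given with and without them.

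The rule found 53 of 1258 cells in the WT GMP library (4.21%, interval 3.17 to 5.47%) and 37 of 2719 in the Tet2 KO GMP library (1.36%, 0.96 to 1.87%). In the Lin-/CD11b+ sort it found 77 of 1924 WT cells (4.00%, 3.17 to 4.98%) and 199 of 3068 Tet2 KO cells (6.49%, 5.64 to 7.42%). The Tet2 KO share was thus higher than WT in the Lin-/CD11b+ sort and lower in the GMP sort. Because 1 UMI can admit a cell, the shares depended on depth: members of the GMP sort had a median of 22800 UMIs in WT and 17901 in Tet2 KO, against 10091 and 9134 in the Lin-/CD11b+ sort. After each cell was thinned at random to 5000 UMIs, 5 WT and 4 Tet2 KO cells of the GMP sort passed the rule (0.40% and 0.15%), and 38 WT and 102 Tet2 KO cells from the Lin-/CD11b+ sort (1.98%, 1.40 to 2.70%, and 3.32%, 2.72 to 4.02%).

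**Figure D1:**
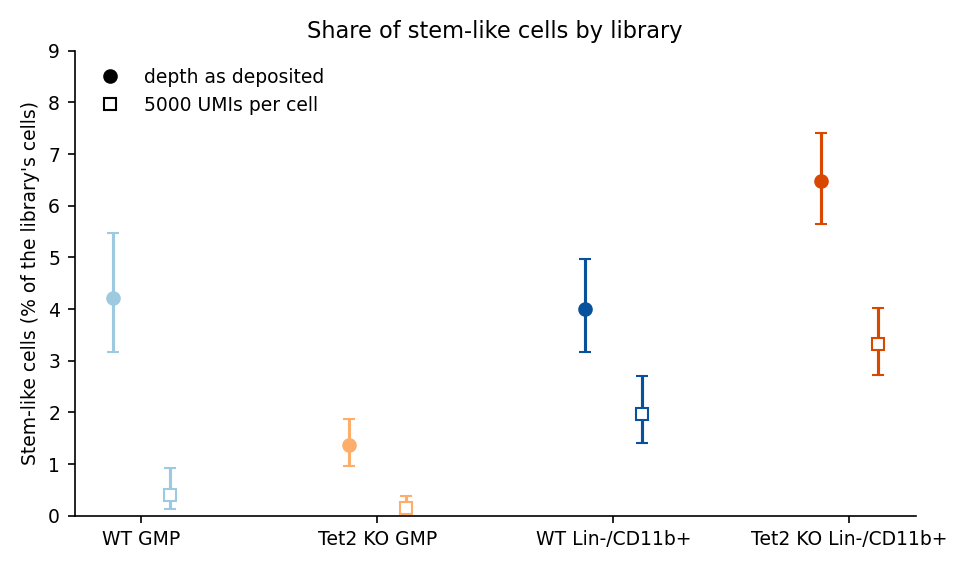
Share of stem-like cells among all cells of each library (%), as deposited (filled circles) and with every cell thinned to 5000 UMIs (open squares), with exact binomial 95% intervals. The Tet2 KO Lin-/CD11b+ library is highest at both depths (6.49% and 3.32%), and the WT GMP library drops from 4.21% to 0.40%.

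The share also depends on what else the gate let in. Among cells with at least 2 companion genes and under the basophil limit, the members were 15.5% in the WT GMP, 8.11% in the Tet2 KO GMP, 24.6% in the WT Lin-/CD11b+ and 29.5% in the Tet2 KO Lin-/CD11b+ library. The other cells of this set, with neither Hlf nor Procr, are called early progenitors below (288, 419, 236 and 475 cells in the same order). They were 22.9%, 15.4%, 12.3% and 15.5% of their libraries. In both sorts their share thus differed by genotype in the same direction as that of the members. At 5000 UMIs the members were 20.9% of the set in WT (15.2 to 27.5%) and 22.9% in Tet2 KO (19.1 to 27.1%) of the Lin-/CD11b+ sort. The intervals of the genotypes overlapped there, and also as deposited (19.9 to 29.8% in WT and 26.1 to 33.1% in Tet2 KO). Mature neutrophils, which should lack both genes and had median depths of 8874 and 9054 UMIs, held Hlf in 5 of 157 WT and 3 of 189 Tet2 KO cells and Procr in none (0 of 157 and 0 of 189, exact upper limits 2.32% and 1.93%). Cells that passed the rule were left out of these neutrophils, which can lower their Hlf and Procr shares. Hlf at 1 UMI was therefore seen in a few percent of cells that should not express it.

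Most members were admitted by Hlf. In the Lin-/CD11b+ sort 55 of 77 WT and 158 of 199 Tet2 KO members had Hlf without Procr, 13 and 23 had Procr without Hlf, and 9 and 18 had both. In the GMP sort 47 of 53 WT and 28 of 37 Tet2 KO members had Hlf without Procr, and 1 cell, in Tet2 KO, had both. A single UMI of the pair admitted 41 of 53 WT GMP, 33 of 37 Tet2 KO GMP, 45 of 77 WT Lin-/CD11b+ and 136 of 199 Tet2 KO Lin-/CD11b+ members. All 5 companion genes were present in 12, 3, 14 and 24 members in that order, and 26 of the 37 Tet2 KO GMP members had only 2.

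Levels are given as UMIs per 1000000 UMIs (CPM) in the sum over the members of a library, which describes the genes the rule used and is not a result about them. Hlf stood at 52.5 CPM in the WT GMP, 45.8 in the Tet2 KO GMP, 126.5 in the WT Lin-/CD11b+ and 131 in the Tet2 KO Lin-/CD11b+ members. Procr stood at 7.88, 14.8, 31.1 and 24.2 CPM in the same order. Meis1 stood at 40.3, 20.7, 92.0 and 110 CPM. Both Lin-/CD11b+ libraries lay above both GMP libraries for each of these. The surface receptor Adgrg1 was measured at 151, 100.5, 231 and 259 CPM, and Myct1, expressed in stem cells and endothelial cells, at 63.9, 34.0, 112 and 77.1 CPM. Since the rule needs a fixed number of UMIs, these CPM fall with depth by construction.

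The label was checked on stem cell genes that the rule did not use. Mecom, a transcription factor of long-term stem cells, was at 38.0 CPM in the WT and 35.6 in the Tet2 KO Lin-/CD11b+ members, against 7.88 in the WT GMP members and 0 UMIs in the Tet2 KO GMP members. Ly6a, which encodes Sca1, was at 56.4 and 112 CPM in the Lin-/CD11b+ sort and at 2.63 and 14.8 CPM in the GMP sort, whose gate excludes Sca1-positive cells. The adhesion molecule Esam had 14 and 35 UMIs in the Lin-/CD11b+ members and 0 and 1 in the GMP members. The members of the Lin-/CD11b+ sort thus carried further stem cell genes, while in the GMP sort most of these were at or near 0, and the GMP-sort members are named here only by the rule. Endothelial cells share some of the rule's genes, and their marker list was higher in the Lin-/CD11b+ members (130.0 CPM in WT and 114 CPM in Tet2 KO, with 5 and 6 of 9 genes detected) than in their whole libraries (44.97 and 41.2 CPM). No member had more than 8 of these UMIs, and Fabp4 was at 0 in the members of all 4 libraries. The part of endothelial cells among the members was not tested.

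**Figure D2:**
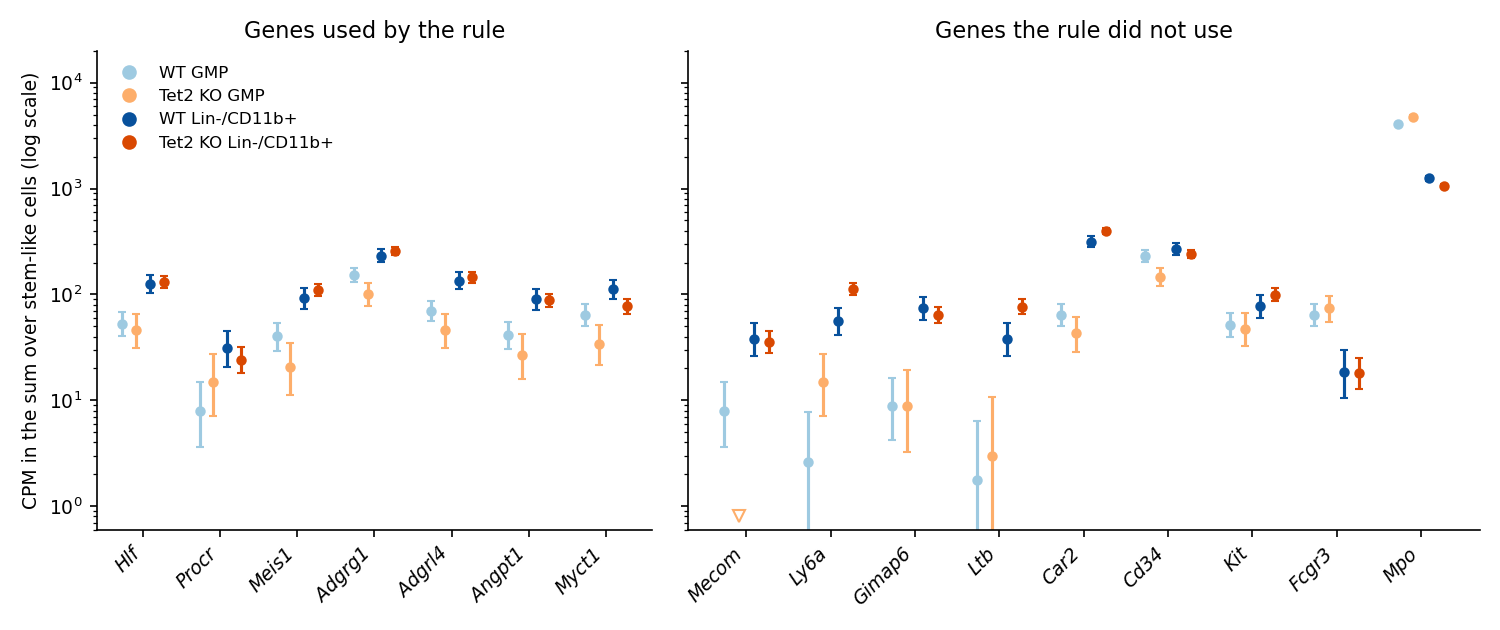
CPM (log scale) in the sum over stem-like cells of each library for 7 genes the rule used (left) and 9 it did not (right), with exact Poisson 95% intervals cut off at the axis. The open triangle is Mecom at 0 UMIs in the Tet2 KO GMP library. The Lin-/CD11b+ libraries lie above the GMP libraries for Mecom, Ly6a, Gimap6, Ltb and Car2, and below them for Fcgr3 and Mpo.

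The members were not uniform, and those with more evidence for the rule carried more of the other stem cell genes. A sum of stem cell genes outside the rule (leaving out the widely expressed Cd34, Kit, Cd27, Ifitm1 and Ifitm3, a choice made after their values were seen) was 806 CPM (748 to 868) in the WT and 935 CPM (893 to 978) in the Tet2 KO Lin-/CD11b+ members. It was 1122 CPM in WT and 1435 in Tet2 KO members with at least 2 UMIs of Hlf and Procr, against 618 and 731 CPM in those with 1 UMI. Members with Procr were at 1266 CPM in WT and 1296 in Tet2 KO, and members with Hlf alone at 666 and 848 CPM. Members with 4 or 5 companion genes were at 941 and 1249 CPM, and those with 2 or 3 at 677 and 699 CPM. Just inside the threshold (1 UMI and 2 companion genes) the sum was 657 CPM in 11 WT and 499 CPM in 40 Tet2 KO cells. Just outside it was 323 CPM in 15 WT and 237 CPM in 16 Tet2 KO cells with 1 UMI and 1 companion gene, and 200.4 and 267 CPM in cells with 2 companion genes and no Hlf or Procr. In the GMP sort the sum was 182 CPM in WT and 152 CPM in Tet2 KO members, close to the 154 and 115 CPM of the early progenitors there.

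Myeloid priming separated the members of the sorts. The share of a member's UMIs from the primary granule genes Mpo, Elane, Prtn3 and Ctsg, which encode the enzymes stored in the first granules of neutrophil and monocyte precursors, had a median of 1.28% in WT and 1.75% in Tet2 KO of the GMP sort, against 0.161% and 0.129% in the Lin-/CD11b+ sort. The ranges overlapped, from 0.0872% to 4.00% in WT GMP members and from 0.0353% to 9.65% in WT Lin-/CD11b+ members. Within the Lin-/CD11b+ sort these genes summed to 2386 CPM in WT and 2158 CPM in Tet2 KO members with 4 or 5 companion genes, and to 7671 and 4784 CPM in those with 2 or 3. At 5000 UMIs, 29 of 77 WT and 42 of 199 Tet2 KO Lin-/CD11b+ members had a UMI of Flt3 or Dntt (37.7%, 26.9 to 49.4%, and 21.1%, 15.7 to 27.4%), which mark lymphoid-primed progenitors. The carbonic anhydrase Car2, shared by stem cells and erythroid progenitors, had one in 71.4% of members of either genotype.

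Transcripts of G2/M genes were found in fewer Lin-/CD11b+ members than early progenitors. At 5000 UMIs, 52 of 77 WT (67.5%, 55.9 to 77.8%) and 152 of 199 Tet2 KO members (76.4%, 69.9 to 82.1%) had at least 2 UMIs of 31 G2/M genes, and 7 WT and 10 Tet2 KO members reached neither this nor 3 UMIs of the 27 S phase genes. In early progenitors of the same libraries 220 of 236 WT (93.2%, 89.2 to 96.1%) and 411 of 475 Tet2 KO cells (86.5%, 83.1 to 89.5%) had at least 2. In the GMP sort 53 of 53 WT and 36 of 37 Tet2 KO members reached the G2/M limit. Counted by summed level, G2/M genes pointed the other way by genotype, as given below, and these UMIs also include transcripts present outside the cycle, so no share of cycling cells is read from them.

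**Figure D3:**
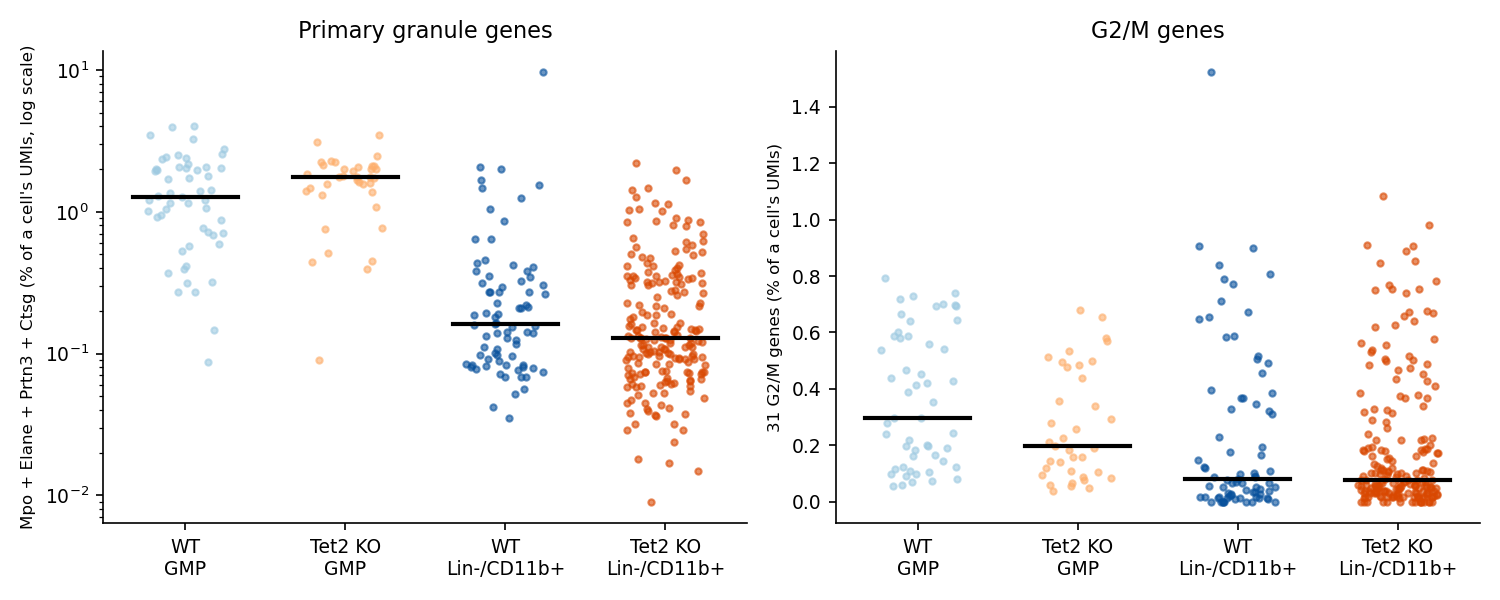
Each point is 1 stem-like cell and each bar the median of its library: left, share of UMIs from Mpo, Elane, Prtn3 and Ctsg (%, log scale); right, share of UMIs from 31 G2/M genes (%). Granule gene medians are 1.28% and 1.75% in the GMP sort and 0.161% and 0.129% in the Lin-/CD11b+ sort, and 1 WT Lin-/CD11b+ cell stands apart at 9.65%.

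Against the early progenitors of the same library, which differ from the members in the very counts used to choose them, few genes stood out in every library with at least 50 cells of both kinds (both Lin-/CD11b+ libraries and the WT GMP library). On the ratio of CPM + 10, of 9436 genes only Hlf was at least 2-fold higher in all 3 libraries (0.0106%), and Csrp3, Fcer1a and Prss34 were at least 2-fold lower (0.0318%). Early progenitors were chosen to lack Hlf and Procr, so no gene outside the rule was at least 2-fold higher in all 3 libraries. Prss34 is limited by the rule, and Fcer1a is the basophil and mast cell IgE receptor. In the Lin-/CD11b+ sort alone, a restriction added after the values were seen, 11 genes (0.117%) were higher in both libraries and 4 (0.0424%) lower. The higher genes included Hlf and Procr, which the choice of cells fixed in advance, and Ly6a, Car2, Myl10, Ccl5, Nupr1, Gimap6, Stxbp4 and Ltb. The lower ones were Csrp3, Fcer1a, Prss34 and Rgcc. The chemokine Ccl5 was carried by few cells, with 93.0% of its WT and 61.4% of its Tet2 KO UMIs in 3 members.

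Ly6a was at 56.4 CPM in members against 11.3 in early progenitors of WT, and at 112 against 33.2 CPM in Tet2 KO. Car2 was at 315 against 99.5 CPM in WT and at 396 against 151 CPM in Tet2 KO. Both genes were higher in the members of both genotypes, with the larger ratio in WT. Gimap6, a GTPase of lymphocytes, was at 73.6 against 26.0 CPM in WT and 63.8 against 25.9 CPM in Tet2 KO. Ctla2a, a cysteine protease inhibitor gene, was higher in all 3 libraries, at 171 against 85.8 CPM in WT GMP, 479 against 221 in WT Lin-/CD11b+ and 455 against 234 in Tet2 KO Lin-/CD11b+ cells. The light chain gene Myl10 was at 49.0 against 27.2, 527 against 171 and 384 against 161 CPM in the same order. The other genes with the largest ratios common to the 3 libraries were Pde4b, Tspan13, Ltc4s, Pcp4l1, Gcnt2, Vamp5, Rbpms, Itih5 and Wfdc17.

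Several lineage genes lay lower in members than in early progenitors. Irf8, a transcription factor of monocytes and dendritic cells, was at 36.8 against 94.9 CPM in WT GMP, 107 against 235 in WT Lin-/CD11b+ and 74.6 against 144 CPM in Tet2 KO Lin-/CD11b+ cells. Dntt, the lymphoid DNA polymerase, was at 75.9 against 158 CPM in WT and 36.6 against 80.9 CPM in Tet2 KO of the Lin-/CD11b+ sort. By share of cells as deposited, a Dntt UMI was present in 29.9% of members against 24.6% of early progenitors in WT. In Tet2 KO these shares were 10.6% and 15.4%, so only there was the share of cells lower in members. Flt3, also a lymphoid-primed gene, was at 66.7 against 62.8 CPM in WT and 41.5 against 45.4 CPM in Tet2 KO of that sort. Ms4a2, a further subunit of the IgE receptor, was at 1.75 against 60.4 CPM in WT GMP cells. Lgals1 and Slpi were also among the lowest, with Lgals1 at 223 against 535 CPM and Slpi at 46.0 against 136 CPM in WT Lin-/CD11b+ cells. Of the 26 myeloid-primed genes measured, 10 of the 26 tested in WT and 12 of 26 in Tet2 KO of the Lin-/CD11b+ sort were at least 1.5-fold lower in members and none higher. Over all genes tested at that limit, 2.22% were lower and 3.09% higher in WT, and 0.696% lower and 1.37% higher in Tet2 KO. In the WT GMP library 11 of 31 G2/M genes were at least 1.5-fold higher in members and none lower, where 0.887% of all genes tested were higher and 0.978% lower. In the Lin-/CD11b+ libraries no G2/M gene passed that limit, and the difference between libraries was not tested.

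Between the sorts of the WT mouse, the genes of the gates are given first. Fcgr3, part of the CD16/32 epitope, was at 63.9 CPM in GMP and 18.4 CPM in Lin-/CD11b+ members, Cd34 at 231 and 270 CPM, and Kit at 51.6 and 77.1 CPM. Ly6a, whose product Sca1 the GMP gate excludes, was at 2.63 and 56.4 CPM. Of 5164 genes with at least 20 UMIs in either sum, 326 (6.31%) were at least 1.5-fold higher in GMP members on CPM + 10 and 468 (9.06%) lower. Of the 17 stem cell genes outside the rule that were tested, 13 were lower and none higher (summed ratio 0.502, 0.473 to 0.533). The lower ones included Mecom, Mllt3 and the gate gene Ly6a, which is counted in this list and its ratio. Of 23 stem cell transcription factors 15 were lower and none higher, and of 9 lymphoid-primed genes 7 were lower. Of 21 myeloid-primed genes 13 were higher, and the list's summed CPM was 2.32-fold higher (2.27 to 2.38). Mpo, the myeloperoxidase gene, was at 4070 against 1247 CPM, and Cebpe, a transcription factor of granulocytes, at 158 against 29.9 CPM. Of 16 glycolysis genes tested 5 were higher (Hk3, Gpi1, Pfkp, Aldoa and Pgam1) and Hk2 was lower. The median over all 5164 genes was 0.04 on the log2 scale. The sorts differ in gate, depth and library at the same time, and the part of each was not tested.

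For the genotype comparison the targeted gene is given first. Tet2 had 9 UMIs in the WT GMP, 5 in the Tet2 KO GMP, 8 in the WT Lin-/CD11b+ and 32 in the Tet2 KO Lin-/CD11b+ members, or 7.88, 7.39, 9.20 and 15.8 CPM. Tet2 transcripts were thus few in every library, and the Tet2 KO to WT ratio in the Lin-/CD11b+ sort was 1.72 (0.775 to 4.32). The UMIs are counted near transcript ends and do not report on the deleted exon, so they check nothing about the deletion. Of 7009 genes with at least 20 UMIs in either Lin-/CD11b+ sum, 243 (3.47%) were at least 1.5-fold higher and 106 (1.51%) lower in Tet2 KO members on CPM + 10, with a median log2 ratio of 0.02. These calls depended on membership: 48 of the 243 and 14 of the 106 were also called with at least 2 UMIs of Hlf and Procr and 3 companion genes, and 82 and 21 with members drawn after thinning. An offset of 1 in place of 10 gave 708 higher and 322 lower genes.

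MHC class II genes, which present peptides to CD4 T cells and are best known from dendritic cells and B cells, were higher in Tet2 KO members of the Lin-/CD11b+ sort. Of the 8 genes tested of 10 measured, 5 were at least 1.5-fold higher and none lower, with a median log2 ratio of 1.31. The median was 0.61 without Cd74 and 0.61 over the genes kept with no minimum count. H2-Aa had 33 UMIs in 14 of 77 WT members and 406 UMIs in 101 of 199 Tet2 KO members, or 38.0 and 201 CPM (5.29-fold, 3.70 to 7.78). H2-Ab1 had 51 UMIs in 32 WT and 544 in 139 Tet2 KO members, or 58.7 and 269 CPM (4.58-fold, 3.43 to 6.23). H2-Eb1 stood at 23.01 and 124 CPM (5.37-fold, 3.40 to 8.94), in 10 WT and 70 Tet2 KO members. Cd74, the invariant chain that escorts these molecules, stood at 46.0 and 351 CPM (7.64-fold, 5.55 to 10.8), and H2-DMb1, which helps load peptides, at 32.2 and 54.4 CPM. The CPM intervals of WT and Tet2 KO did not overlap for H2-Aa, H2-Ab1, H2-Eb1 and Cd74. These intervals take every UMI as independent and do not cover the spread between cells or mice. H2-DMa, the partner of H2-DMb1, was at 207 and 219 CPM.

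A few members held many of these UMIs, and the ratio was lower but still above 1 without them. The highest Tet2 KO member had 469 MHC class II UMIs and the next 269, while the median member had 6 in Tet2 KO and 4 in WT (0.0617% and 0.0399% of UMIs). The list's summed CPM was 2.81-fold higher (2.53 to 3.13), and 2.33-fold higher (2.07 to 2.63) without the 3 members per library that held most of its UMIs. At 5000 UMIs a UMI of H2-Aa was present in 12.99% of WT (6.41 to 22.6%) and 37.7% of Tet2 KO members (30.9 to 44.8%), against 18.2% and 50.8% as deposited. H2-Ab1 was present in 23.4% of WT and 55.8% of Tet2 KO members at that depth, H2-Eb1 in 9.09% and 25.6%, and Cd74 in 11.7% and 37.2%. Mature neutrophils, which are not known for these genes and serve as a background for free RNA, held H2-Aa in 7.64% of WT and 7.41% of Tet2 KO cells and H2-Ab1 in 6.37% and 10.1% at 5000 UMIs. Cd74 was held by 12.7% and 18.5% of the neutrophils, so the WT members were at the background for Cd74, and the intervals of H2-Aa and H2-Eb1 in WT members overlapped those of neutrophils. By level, neutrophils were at 64.2 CPM in WT and 76.9 CPM in Tet2 KO for H2-Aa. They were at 45.9 and 99.9 CPM for H2-Ab1 and at 43.9 and 71.8 CPM for H2-Eb1. WT neutrophils held Cd74 at 291 CPM. For Cd74, H2-Aa and H2-Eb1 the WT neutrophils lay above the WT members.

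The same genes were higher in Tet2 KO early progenitors, where H2-Aa was at 19.8 CPM in WT and 57.2 in Tet2 KO, H2-Ab1 at 56.5 and 117 CPM and Cd74 at 52.1 and 95.8 CPM. The list's summed ratio there was 1.55 (1.45 to 1.66), below the 2.81 of the members, and the difference between the cell kinds was not tested. Markers of dendritic cells summed to 468 CPM in WT and 292 CPM in Tet2 KO members, with 7 and 9 of 12 genes detected and Cd209a at 0 in both. Bst2, Tcf4 and Flt3, which are also given under other lists, made up most of both sums. The sums thus do not measure dendritic cells alone. Klk1 and Ccr9, which are not among the conventional dendritic cell markers of the list, were at 0 in Tet2 KO. The conventional markers Xcr1, Clec9a, Batf3 and Zbtb46 were at 0 in WT and had 16 UMIs in 7 Tet2 KO members. These 7 members held 773 of the 2577 MHC class II UMIs of the Tet2 KO library, and without them, a choice made after the values were seen, the list's summed ratio was 2.04 (1.83 to 2.28). Markers of B cells summed to 75.9 and 176 CPM, with 8 and 11 of 11 genes detected, 74 UMIs in 1 Tet2 KO member, and Pax5 and Ms4a1 among those at 0 in WT. Macrophage markers summed to 6 UMIs in each library. No member of either library had more than 1% of its UMIs from any of these 3 lists. The dendritic cell list holds no MHC class II gene, and the 7 members above also stayed under this limit. MHC class II genes made up 2.59% and 2.44% of the UMIs of the 2 highest Tet2 KO members. The limit therefore does not show whether dendritic cells are among the members, which was not tested.

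**Figure D4:**
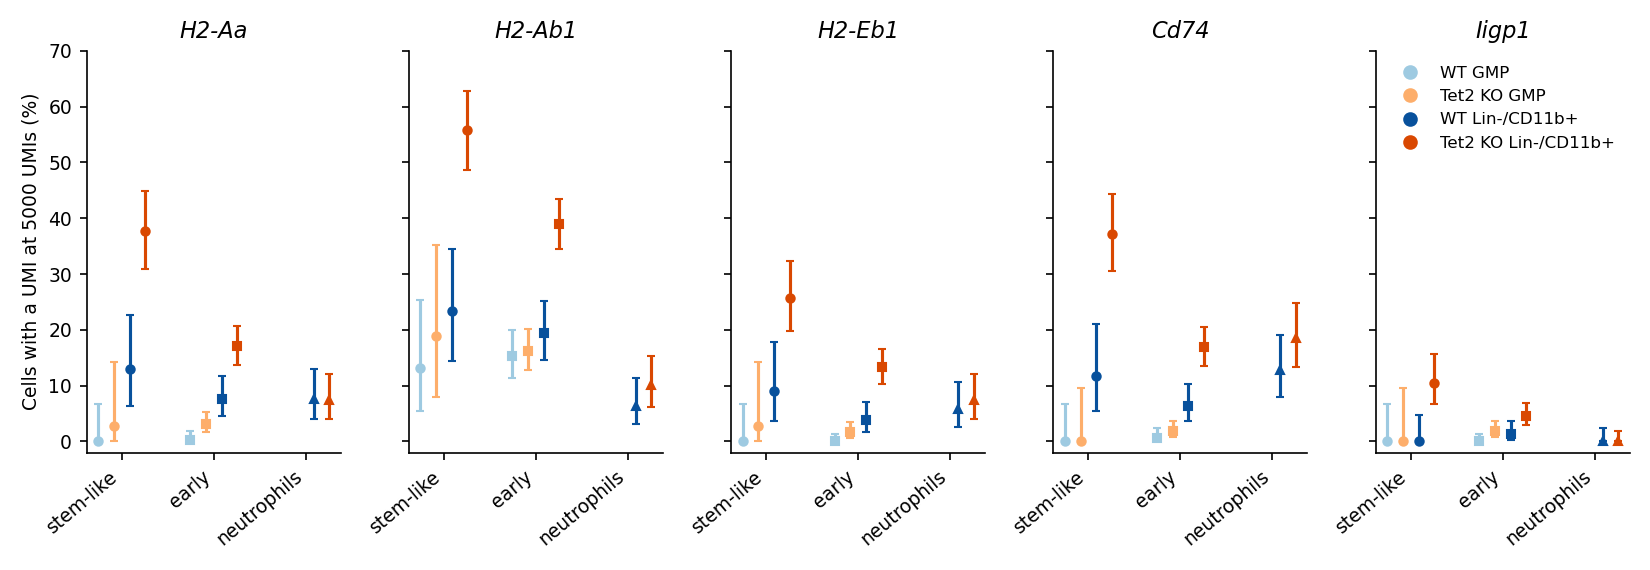
Share of cells (%) with a UMI of each gene at 5000 UMIs per cell in stem-like cells (circles), early progenitors (squares) and mature neutrophils (triangles, Lin-/CD11b+ libraries only), with exact binomial 95% intervals. For all 5 genes the Tet2 KO Lin-/CD11b+ stem-like cells are highest, up to 55.8% for H2-Ab1.

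Interferon-induced GTPases, which attack the vacuoles of intracellular pathogens, were the list with the next largest median log2 ratio, at 0.45 over the 8 genes tested. Of these, 3 were at least 1.5-fold higher and none lower, and the summed ratio was 1.71 (1.44 to 2.05). The list was also higher in Tet2 KO early progenitors of that sort. There it held 424 of 3186984 UMIs in WT and 1173 of 5399236 UMIs in Tet2 KO. The difference between the cell kinds was not tested. Iigp1 had 1 UMI in WT and 51 UMIs in 31 Tet2 KO members (21.9-fold, 3.76 to 882), and its 5000-UMI share was 0% in WT (upper limit 4.68%) and 10.6% in Tet2 KO members, with 0% in neutrophils of both libraries. Gbp2 was at 8.05 CPM in 7 WT and 26.7 CPM in 46 Tet2 KO members (3.31-fold, 1.503 to 8.63). Igtp was at 12.7 and 35.1 CPM (2.77-fold, 1.46 to 5.80), and in the GMP sort at 6.13 and 23.7 CPM (3.86-fold, 1.503 to 11.1). Not all members of the family were past the limit: Irgm1 was at 34.5 and 33.1 CPM and Gbp3 at 26.5 and 29.2 CPM. A partial ISRE was present in 9 of the 10 promoters with an entry, those of Irgm1 and Gbp3 included, so it was found in genes past the limit and in genes below it.

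Of 21 other interferon-stimulated genes tested, 5 were at least 1.5-fold higher and none lower (median log2 ratio 0.27). Isg15, a ubiquitin-like protein, was at 17.3 and 40.5 CPM, Rtp4 at 24.2 and 46.9 CPM and Zbp1, a sensor of viral nucleic acid, at 6.90 and 21.2 CPM. Rsad2 had 1 UMI in WT and 20 in Tet2 KO members. Bst2, the most counted gene of this list, was at 214 and 174 CPM. Of 20 MHC class I and peptide loading genes, H2-Q7 (169 and 323 CPM) and the transactivator Nlrc5 (5.75 and 14.3 CPM) were past 1.5-fold, and B2m, the light chain of all class I molecules, was at 3200 and 3797 CPM.

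Among the other genes with the highest Tet2 KO to WT ratios, some were spread over many members and some were carried by a few. Ly6a was at 56.4 and 112 CPM (1.99-fold, 1.46 to 2.77), in 28 of 77 WT and 102 of 199 Tet2 KO members. It was also higher in Tet2 KO early progenitors of the Lin-/CD11b+ sort, at 11.3 and 33.2 CPM (10.2% and 22.3% of cells). The difference between the cell kinds was not tested. Rpgrip1, a gene of the photoreceptor cilium, was at 4.60 and 24.7 CPM, and in the GMP sort had 1 UMI in WT and 30 UMIs in 20 Tet2 KO members. Bex4 was at 4.60 and 22.7 CPM. Ms4a4c had 1 UMI in WT and 31 in Tet2 KO members, of which 3 members held 54.8%. Lgals3, a galectin of monocytes and macrophages, was at 25.3 and 67.2 CPM, with 86.4% of the WT and 44.9% of the Tet2 KO UMIs in 3 members. Ighm, the immunoglobulin M heavy chain, was at 97.8 and 352 CPM, but 3 Tet2 KO members held 83.3% of its UMIs, and without 3 members per library it was at 80.5 CPM in WT and 58.8 CPM in Tet2 KO. Plasma cell markers moved with it: 2 Tet2 KO members held 8473 and 2803 of 12815 marker UMIs, and 1 WT member held 685 of 1487.

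Among the lower genes, Ctse, which encodes the aspartic protease cathepsin E, differed in both sorts. It had 58 UMIs in 42 of 77 WT and 11 UMIs in 10 of 199 Tet2 KO Lin-/CD11b+ members (66.7 and 5.44 CPM, ratio 0.0815, 0.0386 to 0.157). In the GMP sort it had 100 UMIs in 38 of 53 WT and 2 UMIs in 2 of 37 Tet2 KO members (87.5 and 2.96 CPM). The predicted gene Gm47283 had 34 and 7 UMIs in the Lin-/CD11b+ sort and 21 and 0 in the GMP sort. Nr4a1, an immediate early nuclear receptor linked to stem cell quiescence, was at 39.1 CPM in 20 WT and 4.94 CPM in 9 Tet2 KO members, and rested on 2 and 1 UMIs in the GMP sort. Prss57, a serine protease of primary granules, was at 72.5 and 23.7 CPM, and at 166 and 104 CPM in the GMP sort.

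The neutrophil genes S100a8, S100a9, Ngp, Lcn2 and Wfdc21 and the kinase gene Nmrk1 were also among the lowest, and a few WT members decided this. In WT, 1 member held 2274 of the 2542 UMIs of neutrophil markers. S100a8 was at 1332 CPM in WT and 343 CPM in Tet2 KO members, with 92.4% of the WT UMIs in 3 members, and at 101 and 102 CPM without 3 members per library. S100a9 was at 863 and 136 CPM, and at 87.4 and 66.7 CPM without them. Nmrk1 was at 44.9 and 3.95 CPM, and at 1.15 and 2.47 CPM without them. Ngp was at 27.6 and 25.7 CPM and Wfdc21 at 6.90 and 3.46 CPM on the same count.

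Among stem cell genes, a few were higher in Tet2 KO members. Of 23 stem cell genes outside the rule that were tested in the Lin-/CD11b+ sort, 4 were at least 1.5-fold higher in Tet2 KO members (among them Ly6a, Pdzk1ip1 and Ltb) and none lower, with a median log2 ratio of 0.06. The median was 0.36 with members under the stricter rule and 0.35 with members drawn after thinning. The membrane protein gene Pdzk1ip1 was at 19.6 and 40.03 CPM, and Ltb, lymphotoxin beta, at 38.0 and 76.6 CPM. Of 25 stem cell transcription factors none was higher, and Egr1 (162 and 95.9 CPM) and Tcf4 (97.8 and 48.4 CPM) were lower. Lmo2 was at 428 and 396 CPM and Mecom at 38.0 and 35.6 CPM. Of 23 receptors, the interleukin receptor subunits Il3ra (50.6 and 17.8 CPM) and Csf2rb (27.6 and 13.8 CPM) were lower and Tnfrsf1b (3 and 26 UMIs) was higher.

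Lineage-primed genes went both ways. Of 10 lymphoid-primed genes tested, Dntt (75.9 and 36.6 CPM, ratio 0.48) and Il12a (39.1 and 18.8 CPM) were lower and Ighm higher. The list's median log2 ratio was -0.39, while its summed ratio was 1.09 and became 0.779 (0.709 to 0.856) without the 3 members per library with most of its UMIs. Flt3, the receptor of lymphoid-primed progenitors, was at 66.7 and 41.5 CPM. Of 10 megakaryocyte and erythroid primed genes only Pf4 was past 1.5-fold (10 and 61 UMIs), with 73.8% of its Tet2 KO UMIs in 3 members, and the list's median was 0.27. Of 24 myeloid-primed genes, Elane (1187 and 501 CPM), Ms4a3 (288 and 117 CPM) and Cebpe (29.9 and 11.9 CPM) were lower and Lyz2 (304 and 587 CPM), Cebpa (12.7 and 25.7 CPM) and Klf4 (4 and 29 UMIs) higher. In WT, 3 members held 62.5% of the Elane UMIs, and without 3 members per library Elane was at 445 and 231 CPM.

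Of 29 G2/M genes 5 were lower in Tet2 KO members and none higher (Ccnb1, Aurka, Cenpe, Ube2c and Ttk), with a median log2 ratio of -0.32. Early progenitors of that sort were lower in Tet2 KO as well. Their median share of UMIs from G2/M genes was 0.183% in WT and 0.116% in Tet2 KO, against 0.0820% and 0.0775% in members. Ccnb1, the mitotic cyclin, was at 69.0 and 32.1 CPM. The 27 S phase genes, 72 oxidative phosphorylation genes, 13 mitochondrial-encoded genes, 18 glycolysis genes and 77 ribosomal protein genes tested had none past 1.5-fold in either direction. Of 18 immediate early genes 5 were lower (Egr1, Ier2, Ier3, Nr4a1 and Btg2) and Klf2 and Klf4 higher. Of 16 cell cycle brakes and D cyclins, the inhibitor Cdkn1a (40.3 and 15.8 CPM), Ccnd1 and Btg2 were lower. Of 21 Tet, Dnmt and clonal haematopoiesis genes, the maintenance methyltransferase Dnmt1 (69.0 and 115 CPM) and Asxl2 (18.4 and 39.0 CPM) were higher. Only Hoxa7 (52.9 and 36.1 CPM) and Hoxa9 (46.0 and 37.6 CPM) of 17 Hoxa and Hoxb genes reached 20 UMIs, and neither was past 1.5-fold.

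In the GMP sort the 37 Tet2 KO members were under the 50 set for counting genes, so only values are given. The summed ratio of MHC class II genes was 0.952 (0.774 to 1.17), and H2-Aa, H2-Eb1 and Cd74 together had 5 UMIs in Tet2 KO and 0 in WT members. The ratio was 1.32 (1.05 to 1.67) for the GTPases, 0.699 (0.6004 to 0.813) for lymphoid-primed genes and 0.751 (0.712 to 0.792) for G2/M genes. Of the genes that differed in the Lin-/CD11b+ sort, Ly6a had 3 and 10 UMIs, H2-Q7 stood at 122 and 204 CPM and Isg15 at 11.4 and 37.0 CPM, with 84.0% of the Tet2 KO Isg15 UMIs in 3 members.

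**Figure D5:**
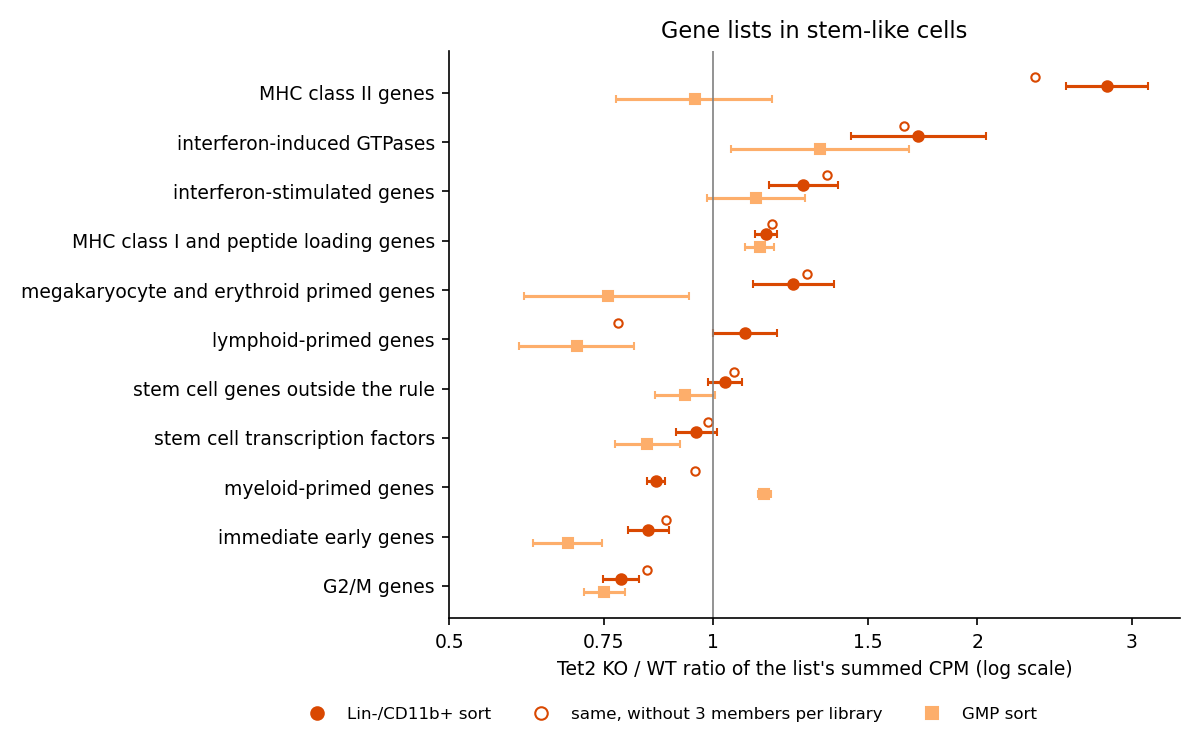
Tet2 KO to WT ratio of the summed CPM of 11 gene lists in stem-like cells (log scale), in the Lin-/CD11b+ sort (filled circles), the same without the 3 members per library that hold most UMIs of the list (open circles, no interval drawn) and in the GMP sort (squares), with exact 95% intervals. MHC class II genes are highest in the Lin-/CD11b+ sort (2.81) and near 1 in the GMP sort (0.952), and lymphoid-primed genes move from 1.09 to 0.779 without 3 members.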

How the data were processed

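Lin-/CD11b+ and GMP cells of 1 WT and 1 Tet2 KO mouse were profiled on the Chromium platform. The authors demultiplexed and counted reads with Cell Ranger 3.1.0 (build mm10 in the submitters' processing notes, with Seurat also named there) and deposited raw UMI counts per gene and cell; their methods keep cells with at least 200 genes, 5000 UMIs and under 5% mitochondrial reads, while 413 deposited cells, 5 of them members, were at or above 5%. The methods and the design text name different kit versions.

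Members and gene lists were chosen with earlier results of these data known. UMI counts were summed over the members of a library and divided by their total (CPM). Genes with at least 20 UMIs in 1 sum were compared by the ratio of CPM + 10, called at 1.5-fold, or at 2-fold against early progenitors. This fold is a size limit, not a test. Ratios have conditional binomial, CPM exact Poisson and shares exact Clopper-Pearson 95% intervals. Coverage of the ratio intervals was tested only on simulated independent Poisson counts per gene. That simulation held no cells, so it does not cover genes whose UMIs are gathered in a few members. Thinning to 5000 UMIs used 1 random draw. Mature neutrophils were cells with at least 5% of UMIs from S100a8 and S100a9, with members left out. Named genes were all genes of the rule and gates, Tet2, the 12 highest and 6 lowest against early progenitors, the 10 highest and 10 lowest by genotype that pointed the same way in both sorts, and, per list, the most counted members and those past 1.5-fold. Further genes of the 2-fold count, Esam, Irgm1 and Gbp3 were added after their values were seen. Alternatives were other scaling (edgeR 4.0.16, TMM), offset, minimum count, depth and membership. Python 3.11.15, numpy 2.4.6, scipy 1.17.1 and pandas 2.3.3 were used. Some genes that the rule for naming would include are not reported here.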

Additional observations from a re-analysis of the deposited data

Results flagged for a closer look

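For 5 gene lists the summed Tet2 KO to WT ratio pointed opposite ways in the 2 sorts, each with an interval that left out 1. The differences were not tested, since each sort had 1 library per genotype. Myeloid-primed genes were at 0.860 (0.840 to 0.881) in the Lin-/CD11b+ sort and 1.14 (1.12 to 1.16) in the GMP sort. Megakaryocyte and erythroid primed genes were at 1.23 (1.11 to 1.37) and 0.757 (0.609 to 0.938). S phase genes were at 1.09 (1.04 to 1.16) and 0.913 (0.859 to 0.971), mitochondrial-encoded genes at 0.955 (0.9403 to 0.971) and 1.07 (1.05 to 1.10), and ribosomal protein genes at 0.994 (0.990 to 0.998) and 1.008 (1.004 to 1.013). Elane, the largest part of the first list by difference, had 62.5% of its WT Lin-/CD11b+ UMIs in 3 members.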

How the results depend on the processing

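No paired analysis was possible because each genotype and sort had 1 library, all with the same replicate number, and for the same reason no replicate was left out. Genes were not counted by genotype in the GMP sort, with 37 Tet2 KO members. Of 411 values under alternatives, 122 of lists, counts and shares and 196 of single genes stayed within the limits set for a move. Another 57 of the former and 22 of the latter moved, and 14 of single genes changed direction. A list's summed ratio uses neither the offset nor the minimum count, so under those settings it was fixed in advance to stay. The lymphoid-primed list also changed sign. Most members rest on 1 UMI of Hlf or Procr, which limits every share, and the cause of the moves below was not tested.

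The share of stem-like cells (WT GMP, Tet2 KO GMP, WT and Tet2 KO Lin-/CD11b+) was 0.954, 0.147, 1.66 and 2.05% with at least 2 UMIs of Hlf and Procr, and 0.397, 0.147, 1.98 and 3.32% at 5000 UMIs. With at least 3 companion genes it was 0.405% in Tet2 KO GMP and 4.89% in Tet2 KO Lin-/CD11b+ cells. The share with G2/M UMIs was 63.8% in Tet2 KO Lin-/CD11b+ members at a limit of 3, and 83.4% there and 100% in Tet2 KO GMP members at full depth.

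By genotype, 243 genes were higher and 106 lower. There were 708 and 322 with an offset of 1, 204 lower with no minimum count, and 427 higher with members drawn after thinning. Of the 243 and 106, members under the stricter rule (at least 2 UMIs and 3 companion genes) shared 48 and 14, and thinned members 82 and 21. Between WT sorts 546 were higher with an offset of 1 and 909 lower with no minimum count. Against early progenitors 1 gene (Hlf, a gene of the rule) was higher and 3 were lower. With an offset of 1 there were 6 higher and 8 lower, with stricter members 6 and 9, and with thinned members 3 and 8. In the Lin-/CD11b+ libraries alone 11 were higher.

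For lists, the log2 ratio of summed CPM by genotype in the Lin-/CD11b+ sort was 1.49 for MHC class II genes, and 1.30 with stricter members, 1.22 without the top 5% of members by UMIs, 1.18 without its gene with the largest difference, 1.22 without 3 members per library and 1.03 without 7 Tet2 KO members with conventional dendritic cell markers. GTPases went from 0.77 to 1.22 with thinned members, and other interferon-stimulated genes from 0.34 to 0.73 with stricter and 0.72 with thinned members. MHC class I genes went from 0.20 to 0.26 with thinned members. G2/M genes went from -0.35 to -0.26 as a mean over cells, -0.21 with thinned members, -0.28 without the top 5% and -0.25 without 3 members. Stem cell genes went from 0.04 to 0.16 with stricter members, 0.18 with thinned members and 0.17 without 1 gene, and transcription factors from -0.07 to -0.18 with stricter members. Myeloid-primed genes went from -0.22 to -0.34 as a mean over cells, -0.088 with stricter and -0.13 with thinned members, -0.42 without the top 5%, -0.17 without members over 1% of another lineage, -0.14 without 1 gene and -0.069 without 3 members. Lymphoid-primed genes went from 0.12 to -0.30 with stricter and -0.54 with thinned members, -0.40 without members over 1% of another lineage, -0.36 without 1 gene and -0.36 without 3 members. Immediate early genes went from -0.25 to -0.64 with stricter and -0.36 with thinned members.

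Single genes that changed direction were Ighm (-0.54 with stricter members, -0.75 with thinned members, -0.53 without members over 1% of another lineage and -0.46 without 3 members), Lgals3 (-0.24 with thinned members), Nmrk1 (0.49, 0.79 and, without 3 members, 0.16), S100a8 (0.83, 0.71 and, without members over 1% of another lineage, 0.64), S100a9 (0.35 with stricter members) and Wfdc21 (1.87 and 0.63). The Lin-/CD11b+ libraries alone, leaving out 3 members per library or the 7 members with dendritic cell markers and the settings tried for the sort comparison were chosen after seeing the data.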

Other observations

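Stxbp4, among the genes 2-fold higher in both Lin-/CD11b+ libraries, lies next to a gene of the rule: in the GENCODE annotation of mm10 it and Hlf follow each other on chromosome 11, on the same strand. It was singled out after its values were seen. Stxbp4 was at 40.3 CPM in members and 10.4 CPM in early progenitors of WT, and at 30.6 and 9.82 CPM in Tet2 KO. Whether UMIs of Hlf and Stxbp4 share transcripts was not tested.

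Ccl5, a chemokine best known from T and NK cells, was at 65.6 CPM in members and 4.39 in early progenitors of the WT, and at 78.1 and 29.3 CPM in the Tet2 KO Lin-/CD11b+ library, with 0 UMIs in the members of both GMP libraries. It was found in 7 WT and 29 Tet2 KO members, and without the 3 members per library with most of its UMIs it was at 4.60 and 30.2 CPM. T and NK cell markers in the Lin-/CD11b+ members summed to 488 CPM in WT and 338 CPM in Tet2 KO, of which Nkg7, also expressed by myeloid progenitors, made up 459 and 306 CPM. Trac and Gzma were at 0 in WT and Cd3e in Tet2 KO, and the part of such cells in the Ccl5 level was not tested.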
